A study of Mus musculus with 8 samples.

Results

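Lysosomal hydrolases, the proton pump that acidifies the lysosome and the transcription factors that switch these genes on were followed in mouse macrophages. The set held 34 genes, chosen by symbol for their known role in the lysosome, out of 36806 gene identifiers in the tables. Of these 34 genes, 31 had an estimate in at least 1 stimulated library and in the untreated one, and 30 had one in all 8 libraries. Poly(A) RNA was sequenced from bone marrow-derived macrophages, which were grown from C57BL/6 marrow in medium that held 30% L929-conditioned medium, a source of the growth factor CSF1, and were used on day 7 of differentiation. The stimulated cultures received a single agent for 4 h. IFNg (interferon gamma) was given at 100 ng/ml. IL4 (interleukin 4), TNFa (tumour necrosis factor) and IL1b (interleukin 1 beta) were given at 10 ng/ml each. TGFb1 (transforming growth factor beta 1) and MALP2, a lipopeptide ligand of Tlr2, were given at 1 ng/ml, and CpG DNA, a ligand of Tlr9, at 100 nM. The last culture was left untreated. Each group held 1 library, so no difference below has a replicate check and none has a p-value.

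Macrophages digest what they take up in lysosomes. The vacuolar proton pump acidifies the lumen, in which proteases, glycosidases and lipases break down cargo, and channels and cholesterol exporters in the membrane release the products. The factors TFEB and TFE3 bind a short palindrome in the promoters of many of these genes. The kinase complex mTORC1, which is recruited to the lysosome by Rag GTPases when nutrients are plentiful, keeps both factors in the cytoplasm.

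The palindrome is shown first because some of the genes share it, though most promoters read did not hold it. Promoters were read from RefSeq on GRCm38.p6, as the bases from 250 before to 50 after each start site, and 28 of the 34 genes had an entry. The letters TCACGTGA, which read the same on both strands, were present in 6 of 28 promoters (21.4%), against 1.12% of 27025 gene promoters of the same length. The 6 were those of Ctsa, Ctsd, Gla, Mcoln1, Atp6v0d1 and Atp6v1a. The inner letters CACGTG, which every TCACGTGA contains, were present in 11 of 28 promoters (39.3%), against 8.09% of all. In related gene lists taken up below, TCACGTGA was present in 0% (nutrient-sensing genes and relatives of Tfeb) to 12.5% (other lysosomal hydrolases and membrane proteins). CACGTG was present in 15.4% (other pump subunits) to 31.6% (nutrient-sensing genes and relatives of Tfeb). The genes were chosen for the role from which the palindrome is known, so these shares describe the set and test nothing. Capitals mark TCACGTGA in the first 4 sequences and CACGTG in that of Lamp1, which held 4 copies; each line gives the strand of the gene, 5′ to 3′.
Mcoln1, chr8:3500453-3500500, plus strand: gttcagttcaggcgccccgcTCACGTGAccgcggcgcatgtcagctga
Atp6v1a, chr16:44139364-44139411, minus strand: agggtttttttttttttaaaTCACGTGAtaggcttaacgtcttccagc
Gla, chrX:134601173-134601253, minus strand: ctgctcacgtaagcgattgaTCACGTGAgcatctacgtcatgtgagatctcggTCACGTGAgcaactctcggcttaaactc
Ctsa, chr2:164833740-164833784, plus strand: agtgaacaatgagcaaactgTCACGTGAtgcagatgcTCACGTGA
Lamp1, chr8:13159080-13159160, plus strand: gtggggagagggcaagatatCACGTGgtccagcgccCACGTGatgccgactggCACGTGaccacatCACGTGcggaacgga
The match in Mcoln1 began 46 bases before the start site and that in Atp6v1a 132 bases before it. Gla held its matches 228 and 195 bases before the start site. A match describes the letters only, and binding was not measured in the data used here.

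Levels are given as FPKM, which divides by transcript length. The untreated values of the 7 tables differed by 1 factor per table, so all tables were set on the scale of the IFNg table (factors of 0.907 to 0.962 for the other 6). All 7 comparisons share the single untreated library, so a high or low untreated value enters every one of them. Absolute depth is unknown. Judged by its lowest values, the IFNg library was the shallowest: a single read there stood for 2.03 times the FPKM that it did without treatment, and for 1.04 to 1.43 times in the remaining 6 libraries. Of 10 macrophage markers, 9 were above 1 FPKM in every library, among them Csf1r at 986 to 1456 FPKM in stimulated libraries and 1383 FPKM untreated. Mertk varied most, at 1.11 FPKM (MALP2) to 18.7 FPKM (TGFb1) in stimulated libraries and 21.8 FPKM untreated. Lyz2 had no estimate in 5 libraries. Neutrophil markers summed to 145 FPKM (IL4) to 395 FPKM (IFNg) in stimulated libraries and 252 FPKM untreated, with 4 (IL4) to 8 (IFNg) of 10 at 1 FPKM or more after stimulation and all 10 untreated. Stromal markers summed to 144 FPKM after IFNg, 69.3 to 80.2 FPKM after the other 6 stimuli and 67.9 FPKM untreated, with 5 to 8 of 11 at 1 FPKM or more. B and T cell markers summed to 7.51 FPKM or less in every library, of which the B cell gene Cd79b made up 7.38 FPKM untreated, and 6 dendritic cell markers summed to 3.61 FPKM or less.

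Most of these genes were abundant. In the untreated library 29 of the 30 genes measured throughout were above the median of all genes at 1 FPKM or more (13.4 FPKM), and 16 were in the top 5% (195 FPKM or more). In the stimulated libraries 26 or 27 were above the corresponding median and 12 to 15 in the top 5%. The most abundant were too abundant for an estimate. The tables mark as too abundant to quantify Psap, the precursor of the saposins that help lipid hydrolases, the aspartic protease Ctsd and the cysteine protease Ctsb in the untreated library, where only 6 identifiers in all were marked so, the others being Lyz2 and the locus neighbours Fdft1 and Ifitm10. Where they had an estimate, Psap stood at 6539 to 9949.9 FPKM (IFNg, TNFa and MALP2), Ctsd at 5919 to 8137 FPKM (all 7 stimuli) and Ctsb at 5965 FPKM (IFNg). No comparison with the untreated library could be made for these 3 genes. Tfe3 had a failed estimate after CpG.

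**Figure D1:**
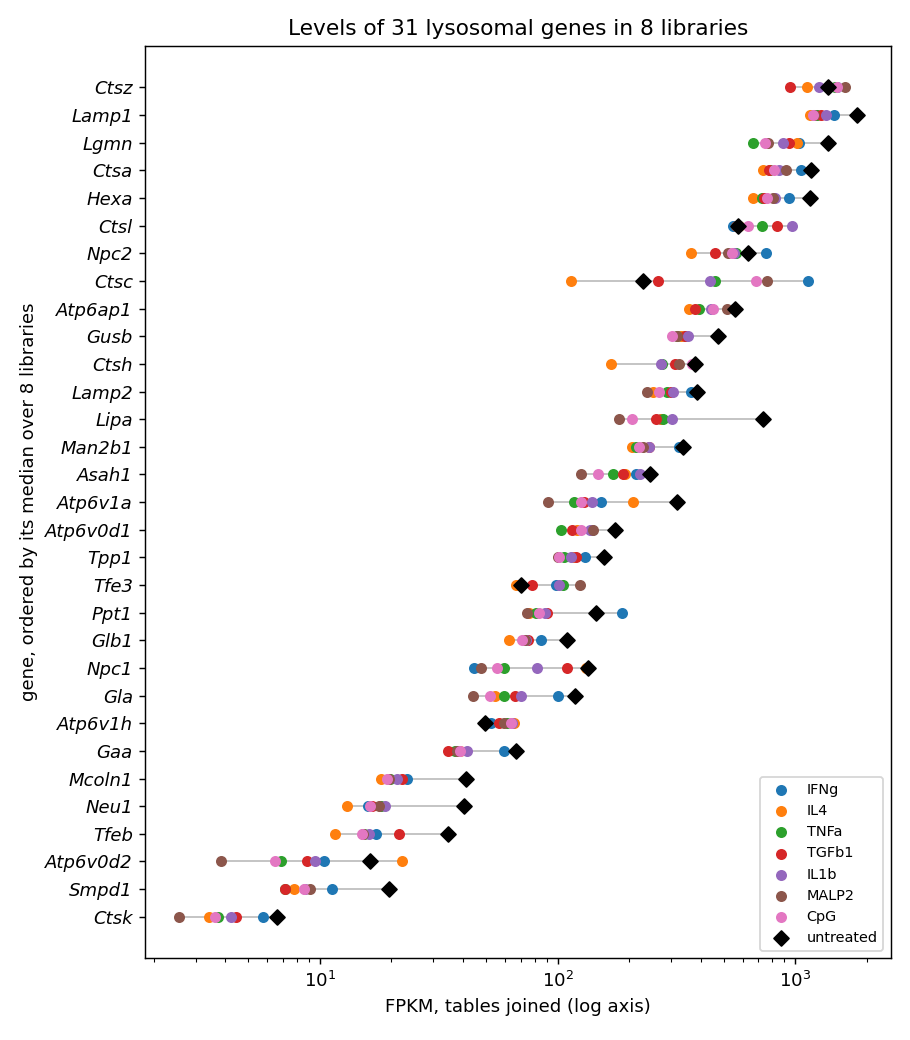
FPKM (log axis, tables joined) of the 31 compared genes, ordered by their median; circles are the 7 stimulated libraries and the diamond is the untreated one, with 1 library each and no CpG value for Tfe3. The diamond lies at the right end for most genes, and Ctsc has the widest spread, 1133 FPKM after IFNg and 114 FPKM after IL4 against 229 FPKM untreated.

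After stimulation most of the compared genes were lower than untreated, by a median of 0.23 (IFNg) to 0.67 (IL4) on the log2 scale, and the protease gene Ctsc was the only one at least 2-fold higher. Changes are log2 of (stimulated FPKM + 1) over (untreated FPKM + 1), which makes the change of weakly expressed genes look smaller than it is, and a gene was counted at 2-fold or more. After IFNg, 1 of 31 compared genes was at least 2-fold higher, where 10.7% of all genes compared were, and 4 (12.9%) were at least 2-fold lower, where 12.7% of all genes were. After IL4, 0 of 31 were higher (9.86% of all genes) and 7 (22.6%) were lower (11.9% of all genes). After TNFa, 1 of 31 was higher (8.92% of all) and 9 (29.0%) were lower (10.4% of all). The share of lower genes thus stood near that of all genes after IFNg and above it after IL4 and TNFa. After TGFb1, 0 of 31 were higher (7.15% of all) and 4 (12.9%) were lower (9.15% of all). After IL1b, 0 of 31 were higher (7.29% of all) and 5 (16.1%) were lower (8.57% of all). After MALP2, 1 of 31 was higher (9.53% of all) and 10 (32.3%) were lower (11.7% of all), and after CpG 1 of 30 was higher (9.43% of all) and 9 (30.0%) were lower (11.2% of all). The highest counts of lower genes thus came after MALP2, TNFa and CpG, and 13 genes passed the size in at least 1 comparison. In bulk RNA, fewer cells with a transcript and less of it per cell cannot be told apart.

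The median log2 change of the compared genes was -0.23 after IFNg, where that of all genes was -0.11, and -0.67 after IL4, where that of all genes was -0.11. It was -0.65 after TNFa (-0.096 for all genes), -0.54 after TGFb1 (-0.077), -0.47 after IL1b (-0.090), -0.63 after MALP2 (-0.095) and -0.63 after CpG (-0.12). Between 24 and 28 of the compared genes had a change below 0, while 55.2% to 57.1% of all genes did.

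Calls made by the authors with Cuffdiff were in most comparisons no more frequent among these genes than among all. In the authors' deposited table, 2 compared genes were called in either direction after IFNg (18.9% of all genes compared), 5 after IL4 (19.2%), 4 after TNFa (17.9%), 3 after TGFb1 (17.5%), 4 after IL1b (16.8%), 9 after MALP2 (17.7%) and 4 after CpG (18%). These shares were below or near the background except after MALP2. Atp6v1a, Ctsc and Gaa were each called in 6 comparisons of the authors' deposited table, and Tfeb in 5. For the authors' calls and bounds, each comparison of 2 single libraries speaks of those libraries and not of the conditions.

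**Figure D2:**
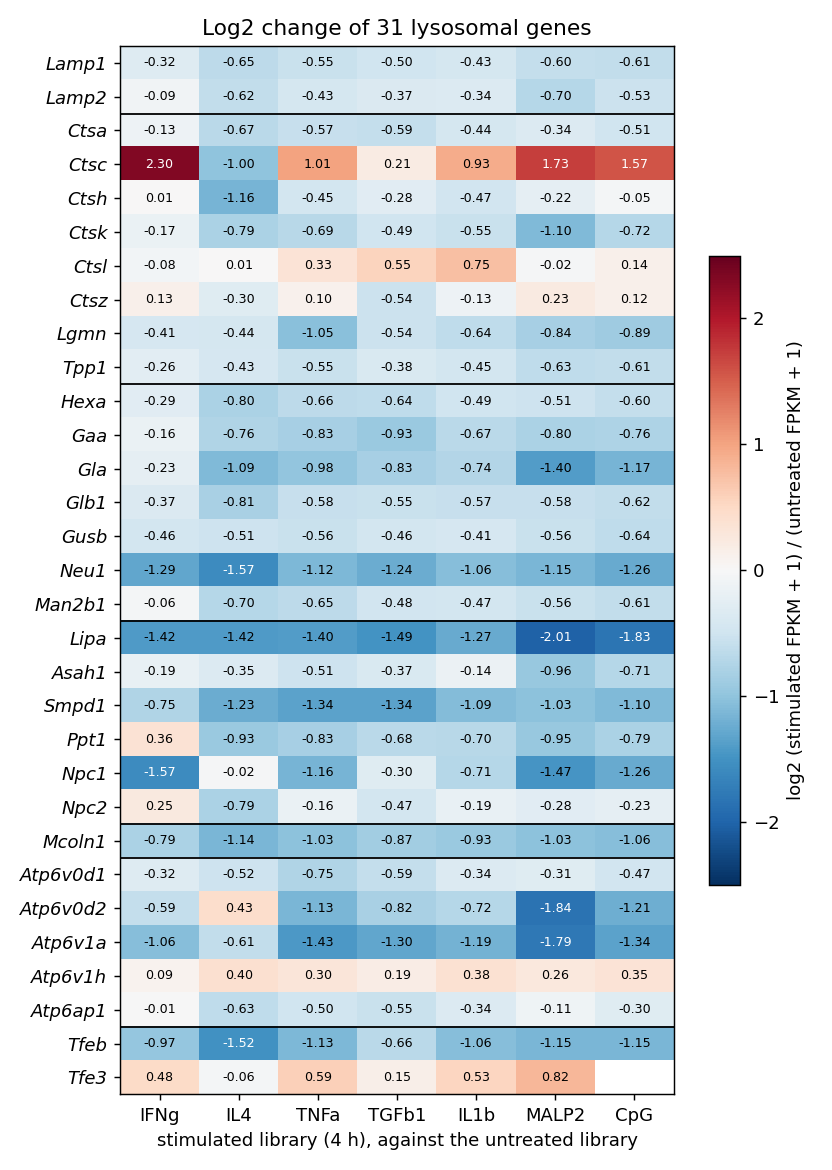
Log2 of (stimulated FPKM + 1) over (untreated FPKM + 1) for 31 genes (rows, grouped by role from membrane proteins at the top to transcription factors at the bottom) in 7 comparisons (columns), blue for lower and red for higher than untreated. Rows of Neu1 and Lipa are below -1 throughout, Ctsc is at 2.30 after IFNg and -0.9995 after IL4, and the empty cell is Tfe3 after CpG.

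Lamp1 and Lamp2, which encode the glycoproteins that line the lysosomal membrane, were lower in every stimulated library by less than 2-fold. Lamp1 lay between 1152 FPKM (IL4) and 1455 FPKM (IFNg) in stimulated libraries and at 1812 FPKM untreated, a log2 change of -0.65 to -0.32. Lamp2 lay between 238 and 364 FPKM in stimulated libraries and at 388 FPKM untreated. Lamp1 shares its deposited locus with 2 other identifiers, so its level may include some of their reads.

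Among the proteases Ctsc stood apart, with values on both sides of the untreated one. Ctsc (ENSMUSG00000030560, mm9 chromosome 7, 95426594 to 95459398 in the deposited tables) encodes the dipeptidyl peptidase that activates the serine proteases of granules. It had 1133 FPKM after IFNg, 114 after IL4, 461 after TNFa, 264 after TGFb1, 436 after IL1b, 758 after MALP2 and 682 after CpG, against 229 FPKM untreated. The highest levels thus came after IFNg, MALP2 and CpG, intermediate ones after TNFa and IL1b, and only that after IL4 was below untreated. The locus holds 1 other identifier. The change was 4.94-fold after IFNg, 3.31-fold after MALP2, 2.97-fold after CpG, 2.01-fold after TNFa and 1.90-fold after IL1b, and after IL4 the log2 change was -0.9995, just under the size counted. Each deposited table gives the untreated library its own bounds, which differ between tables, so bounds were compared within a table. The authors' bounds were 709.6 to 1557 FPKM after IFNg, against 144 to 314 FPKM untreated, and 76.6 to 151 FPKM after IL4, against 155 to 302 FPKM untreated, so neither pair overlapped. After TGFb1 they were 189.7 to 338 FPKM, against 163 to 294 FPKM untreated, and overlapped. Ctsc was called in the authors' deposited table in every comparison but that of TGFb1 (q = 0.732), with q-values of 5.44e-08 (IFNg) to 0.0184 (IL4). Summed neutrophil markers were also highest after IFNg (395 FPKM) and lowest after IL4 (145 FPKM), against 252 FPKM untreated; their part in the result was not tested. They were 335 FPKM after MALP2, 258 after CpG, 254 after TNFa, 221 after IL1b and 206 after TGFb1. Among the stimulated libraries this was the order of Ctsc. After IL1b and TGFb1, however, the marker sums were below untreated while Ctsc was above it. In the untreated library S100a8 (113 FPKM) and S100a9 (99.5 FPKM) made up most of that sum. There the granule genes Ngp, Ltf, Camp, Mpo and Elane stood at 23.4, 5.66, 3.17, 1.36 and 1.15 FPKM. Ngp was highest after IFNg (39.5 FPKM) and lowest after IL4 (10.8 FPKM).

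The promoter of Ctsc held no CACGTG. It was the only one of the 28 with the letters TTCNNNGAA (3.57%), the palindromic form bound by STAT factors, which is its own reverse complement and was present in 9.55% of all promoters. Capitals mark that match, which began 236 bases before the start site.
Ctsc, chr7:88277835-88277877, plus strand: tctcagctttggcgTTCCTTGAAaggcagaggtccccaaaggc

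The other proteases were mostly lower by less than 2-fold, with 1 exception in each of 3 genes. Ctsh, a cysteine aminopeptidase, had 379.7 FPKM after IFNg, 168 after IL4, 276 after TNFa, 311 after TGFb1, 272 after IL1b, 325 after MALP2 and 366 after CpG, against 378 FPKM untreated. Only IL4 was at least 2-fold lower (log2 change -1.16), and its bounds of 121 to 216 FPKM lay below the untreated bounds of that table, 270.2 to 485 FPKM. The asparaginyl endopeptidase Lgmn had 1036 FPKM after IFNg, 1013 after IL4, 667 after TNFa, 945 after TGFb1, 886 after IL1b, 771 after MALP2 and 743 after CpG, against 1378 FPKM untreated. Its change was lowest after TNFa (-1.05), with bounds that overlapped. Ctsk, the collagen-degrading cathepsin of osteoclasts, was the least abundant of the compared genes, with 2.56 FPKM after MALP2, 3.43 to 5.79 FPKM after the other stimuli and 6.61 FPKM untreated. Per length its level was 0.434% to 1.06% of that of Ctsl in the stimulated libraries and 1.15% in the untreated one.

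Ctsl, which degrades proteins and trims the invariant chain, was above untreated in 5 of the 7 stimulated libraries. It had 970.1 FPKM after IL1b, 841 after TGFb1, 724 after TNFa, 632 after CpG, 577 after IL4, 565 after MALP2 and 545 after IFNg, against 575 FPKM untreated. The change reached 0.75 after IL1b, under the size counted. Ctsa, Ctsz and Tpp1, a carboxypeptidase, a further cathepsin and a tripeptidyl peptidase, had changes between -0.67 and 0.23. The loci of Ctsa and Ctsz hold 2 and 1 other identifiers. Relative to Ctsl in the same library, Ctsc was at 208% after IFNg, 134% after MALP2, 108% after CpG, 63.7% after TNFa, 44.9% after IL1b, 31.4% after TGFb1 and 19.7% after IL4, against 39.8% untreated, so the order of these 2 cathepsins was reversed after IFNg, MALP2 and CpG.

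Of the 7 glycosidases every one had a change below 0 in all 7 comparisons, and the sialidase gene Neu1 was at least 2-fold lower in each. Neu1 (ENSMUSG00000007038, mm9 chromosome 17, 35068197 to 35074242), which removes sialic acid, had 15.9 FPKM after IFNg, 12.9 after IL4, 18.0 after TNFa, 16.5 after TGFb1, 18.8 after IL1b, 17.7 after MALP2 and 16.2 after CpG, against 40.3 FPKM untreated. The stimulated libraries were all close to each other and below the untreated one. Its log2 change was -1.57 (IL4) to -1.06 (IL1b), but the untreated bounds, which began at 13.7 (IFNg table) to 19.8 FPKM (IL1b table), overlapped the stimulated ones in each of the 7 tables. The authors' deposited table called it after IL4 only (q = 0.0361).

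Gla, the alpha-galactosidase whose loss causes Fabry disease, had 100.4 FPKM after IFNg, 54.8 after IL4, 59.3 after TNFa, 66.0 after TGFb1, 70.2 after IL1b, 44.0 after MALP2 and 51.9 after CpG, against 118 FPKM untreated. After IFNg it was near untreated (log2 change -0.23), and it was at least 2-fold lower after IL4 (-1.09), MALP2 (-1.40) and CpG (-1.17). The acid alpha-glucosidase Gaa, which breaks down glycogen, had 59.6 FPKM after IFNg, 39.0 after IL4, 37.1 after TNFa, 34.6 after TGFb1, 41.4 after IL1b, 37.9 after MALP2 and 38.8 after CpG, against 66.6 FPKM untreated. It never reached 2-fold (-0.93 to -0.16), yet its bounds were narrow, and after the 6 stimuli other than IFNg they lay below the untreated bounds of the same table. The nearest pair was that of CpG, with an upper bound of 49.1 FPKM after CpG and a lower bound of 49.3 FPKM untreated, and after IL1b these bounds were 50.4 FPKM and, untreated, 52.7 FPKM. Gaa was called lower in those 6 comparisons in the authors' deposited table, with q-values of 0.000626 (TGFb1) to 0.0271 (MALP2). Hexa, Glb1, Gusb and Man2b1, which remove hexosamine, galactose, glucuronate and mannose, had changes of -0.81 to -0.06, and the locus of Glb1 holds 1 other identifier. The IFNg library had the change nearest 0 for Hexa, Gaa, Gla, Glb1 and Man2b1.

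Among the lipid genes Lipa was lower than untreated throughout, and its change after MALP2 was the lowest of the set. Lipa (ENSMUSG00000024781, mm9 chromosome 19, 34566807 to 34601964) encodes the acid lipase that hydrolyses cholesteryl esters and triglycerides. It had 273 FPKM after IFNg, 273 after IL4, 277 after TNFa, 260.1 after TGFb1, 304 after IL1b, 181 after MALP2 and 205 after CpG, against 733 FPKM untreated. All 7 stimulated levels were below untreated, by 2.41-fold (IL1b) to 4.03-fold (MALP2). The authors' bounds for the untreated library were wide, at 53.8 to 1413 FPKM in the IFNg table and 322 to 1144 FPKM in the IL1b table, and overlapped the stimulated bounds in all 7 tables. A call for it stood in the authors' deposited table after MALP2 only (q = 0.0390).

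Smpd1, the acid sphingomyelinase, had 11.2 FPKM after IFNg, 7.79 after IL4, 7.15 after TNFa, 7.16 after TGFb1, 8.69 after IL1b, 9.11 after MALP2 and 8.61 after CpG, against 19.6 FPKM untreated. It was at least 2-fold lower after every stimulus but IFNg (log2 change -0.75). The bounds of Smpd1 overlapped in all 7 tables, and it was called after TGFb1 only (q = 0.0439). The cholesterol exporter Npc1 (mm9 chromosome 18, 12327225 to 12394909) had 44.5 FPKM after IFNg, 132 after IL4, 59.4 after TNFa, 109 after TGFb1, 81.9 after IL1b, 47.8 after MALP2 and 55.4 after CpG, against 134 FPKM untreated. After IL4 and TGFb1 Npc1 was thus near untreated (log2 change -0.02 and -0.30), while it was 2.97-fold lower after IFNg, 2.78-fold after MALP2, 2.40-fold after CpG and 2.24-fold after TNFa. Its untreated bounds, 37.5 to 231 FPKM in the IFNg table, overlapped the stimulated ones in all 7 tables, and its locus holds 2 other identifiers.

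Npc2, the soluble partner that hands cholesterol to Npc1, ran in another order over the stimuli. Npc2 had 753 FPKM after IFNg, 365 after IL4, 565 after TNFa, 457 after TGFb1, 554 after IL1b, 519 after MALP2 and 539 after CpG, against 632 FPKM untreated. Its level was thus lowest after IL4, where Npc1 was highest among the stimulated libraries, and highest after IFNg, where Npc1 was lowest. No change of Npc2 reached 2-fold (log2 change -0.79 to 0.25), and its bounds overlapped in all 7 tables. Neither Npc1 nor Npc2 was called in any comparison of the authors' deposited table. Asah1, the acid ceramidase, lay between 125 FPKM (MALP2) and 221 FPKM (IL1b) in stimulated libraries and at 244 FPKM untreated. In the authors' deposited table Asah1 was called lower after MALP2. The thioesterase Ppt1, which removes palmitate from proteins, had 186 FPKM after IFNg and 74.3 to 90.2 FPKM after the other 6 stimuli, against 145 FPKM untreated; its locus also spans Cap1.

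Mcoln1, the calcium channel through which the lysosome signals to TFEB, was lower in all 7 stimulated libraries. It had 23.3 FPKM after IFNg, 18.1 after IL4, 19.7 after TNFa, 22.1 after TGFb1, 21.1 after IL1b, 19.6 after MALP2 and 19.2 after CpG, against 41.1 FPKM untreated. The decrease was 2-fold or more after IL4, TNFa, MALP2 and CpG (log2 change -1.14 to -1.03) and just under it after IFNg, TGFb1 and IL1b (-0.93 to -0.79). Bounds overlapped in every comparison.

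The subunits of the proton pump differed among themselves, with Atp6v1a lower throughout, Atp6v1h higher and Atp6v0d2 on both sides of untreated. Atp6v1a (ENSMUSG00000052459, mm9 chromosome 16, 44085514 to 44139818), the catalytic subunit that hydrolyses ATP, had 152 FPKM after IFNg, 208 after IL4, 118 after TNFa, 129 after TGFb1, 139 after IL1b, 91.1 after MALP2 and 125 after CpG, against 318 FPKM untreated. It was at least 2-fold lower after every stimulus but IL4, and 3.47-fold lower after MALP2. In those 6 comparisons the stimulated bounds lay below the untreated ones of the same table, whose lower end was 216 (IFNg table) to 245 FPKM (IL1b table). In the authors' deposited table Atp6v1a was called lower in the same 6, with q-values of 2.14e-08 (MALP2) to 0.00710 (IFNg).

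The d subunit of the membrane sector comes from either of a pair of genes, the ubiquitous Atp6v0d1 and Atp6v0d2, which is known from osteoclasts, kidney and fused macrophages. Atp6v0d2 (ENSMUSG00000028238, mm9 chromosome 4, 19803987 to 19849752) had 10.4 FPKM after IFNg, 22.2 after IL4, 6.87 after TNFa, 8.79 after TGFb1, 9.49 after IL1b, 3.83 after MALP2 and 6.44 after CpG, against 16.2 FPKM untreated. It was thus highest after IL4 and lowest after MALP2. After IL4 its log2 change was 0.43, and its bounds of 9.67 to 34.7 FPKM overlapped those untreated (7.06 to 25.4 FPKM). The level after MALP2 was 3.59-fold below untreated, and its bounds of 1.33 to 6.32 FPKM lay below those of the untreated library in the same table, which began at 6.46 FPKM. Per length its level was 18.3% of that of Atp6v0d1 after IL4, 2.72% after MALP2, 5.15% to 7.62% after the other 5 stimuli and 9.30% untreated. Atp6v0d1 itself lay between 103 and 141 FPKM in stimulated libraries and at 174 FPKM untreated.

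Markers of osteoclasts and giant cells were examined beside Atp6v0d2. The 9 markers summed to 144 FPKM after IL4, 40.8 to 93.5 FPKM after the other 6 stimuli and 51.1 FPKM untreated, and 4 to 6 of them reached 1 FPKM in a library. The integrin Itgb3 made up most of the sum after IL4, with 93.0 FPKM. It had 1.69 to 12.2 FPKM after the other stimuli and 4.51 FPKM untreated. Ocstamp was also highest after IL4 (3.58 FPKM). Dcstamp was highest after TNFa (2.33 FPKM), Mmp9 after MALP2 (15.2 FPKM) and Tnfrsf11a after TGFb1 (50.4 FPKM). Nfatc1 had 10.7 FPKM after IL4 and 26.3 FPKM untreated. Calcr was at or near 0 in all 8 libraries, and Oscar stayed below 0.1 FPKM. Their part in the result was not tested. Acp5, the acid phosphatase of osteoclasts and a lysosomal enzyme itself, ran otherwise, with 36.7 FPKM after MALP2, 27.2 after CpG, 3.07 after IL4 and 6.37 FPKM untreated.

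The remaining pump genes lay within 2-fold of untreated. Atp6v1h, the subunit that couples the cytoplasmic and membrane sectors, was higher than untreated in all 7 libraries, at 52.7 to 65.8 FPKM against 49.6 FPKM untreated (log2 change 0.09 to 0.40), and was thus the only compared gene with no stimulated level below untreated. Atp6ap1, an accessory subunit, lay between 359 FPKM (IL4) and 554 FPKM (IFNg) in stimulated libraries and at 556 FPKM untreated.

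The 2 transcription factors differed, Tfeb being lower than untreated throughout and Tfe3 mostly higher. Tfeb (ENSMUSG00000023990, mm9 chromosome 17, 47873978 to 47929368) had 17.2 FPKM after IFNg, 11.5 after IL4, 15.4 after TNFa, 21.5 after TGFb1, 16.2 after IL1b, 15.1 after MALP2 and 15.1 after CpG, against 34.7 FPKM untreated. All stimulated levels were below untreated, most after IL4 (log2 change -1.52) and least after TGFb1 (-0.66). In the authors' deposited table Tfeb was called lower after IL4, TNFa, IL1b, MALP2 and CpG, with q-values of 0.000508 (IL4) to 0.0189 (MALP2). Tfe3 had 98.1 FPKM after IFNg, 67.1 after IL4, 106 after TNFa, 77.9 after TGFb1, 102 after IL1b and 125 after MALP2, against 70.0 FPKM untreated. It was higher after 5 of the 6 stimuli with a value, at most by 0.82 on the log2 scale (MALP2), which the authors' deposited table called (q = 0.0130). Per length the level of Tfe3 was thus 3.62 (TGFb1) to 8.24 times (MALP2) that of Tfeb in the stimulated libraries and 2.02 times in the untreated one.

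**Figure D3:**
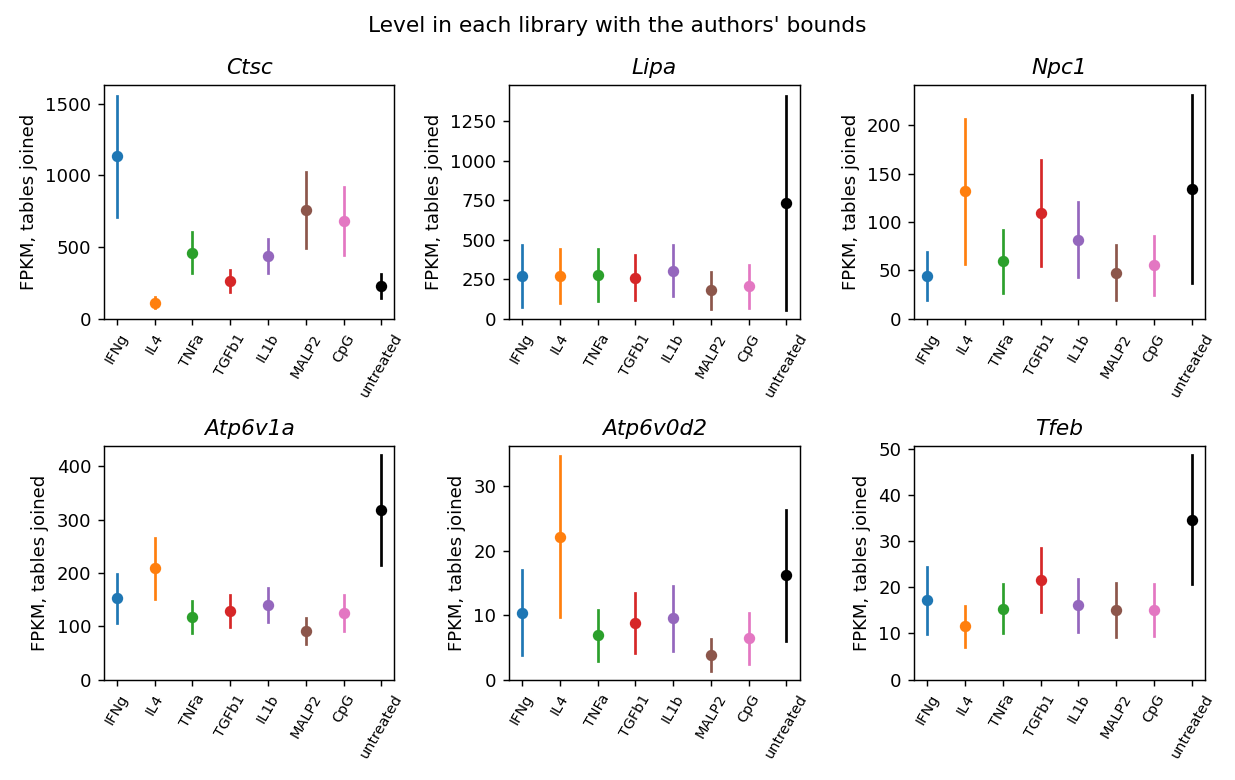
FPKM (tables joined) of 6 genes in the 7 stimulated libraries and, in black at the right, the untreated one; points are the single library of each group and bars the authors' lower and upper confidence bounds, whose level is not stated (untreated bar as in the IFNg table). Ctsc separates IFNg (709.6 to 1557) from IL4 (76.6 to 151), the untreated bar of Lipa spans 53.8 to 1413, and for Atp6v1a 6 stimulated bars lie below the untreated bar of 216 to 421.

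Because 1 untreated library enters all 7 comparisons, each stimulated library was also set against the median of the other 6 stimulated ones. Tfe3 could not be included and Ctsd could, which again gave 31 genes. Most of the differences described above were then small, and few genes were at least 2-fold apart. After IFNg, Ctsc (log2 difference 1.34) and Ppt1 (1.17) were higher, where 7.73% of all genes were, and 0 genes were lower (3.4% of all). After IL4, Atp6v0d2 (1.39) and Npc1 (1.19) were higher (4.8% of all) and Ctsc (-2.32) was lower (5.81% of all). After TNFa 0 genes were higher (1.59% of all) or lower (0.852% of all). In these 3 comparisons the genes apart were thus Ctsc, Ppt1, Atp6v0d2 and Npc1. After TGFb1, 0 genes were higher (3.5% of all) and Ctsc (-1.11) was lower (3.99% of all). After IL1b 0 genes were higher (1.19% of all) or lower (1.13% of all). After MALP2, 0 genes were higher (3.21% of all) and Atp6v0d2 (-1.07) was lower (1.47% of all), and after CpG 0 genes were higher (3.6% of all) or lower (0.825% of all). Each of these counts was 0 to 2 genes.

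On that scale the median of the 31 genes was 0.26 after IFNg, -0.19 after IL4, -0.090 after TNFa, 0.054 after TGFb1, 0.11 after IL1b, -0.071 after MALP2 and -0.068 after CpG. The medians of all genes on that scale were -0.061 (IFNg) to 0.032 (IL1b). After IFNg, 27 of 31 genes lay above the other stimulated libraries and 4 below, Npc1 (-0.65) among them, while 56.0% of all genes lay below. Neu1, Lipa, Smpd1, Mcoln1, Atp6v1a and Tfeb, all lower than untreated throughout, were within 0.71 of the other stimulated libraries in every case, so their low values were shared by the 7 stimulated libraries. The IFNg library was the shallowest and had the highest stromal and neutrophil marker sums; their part in its higher median was not tested.

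**Figure D4:**
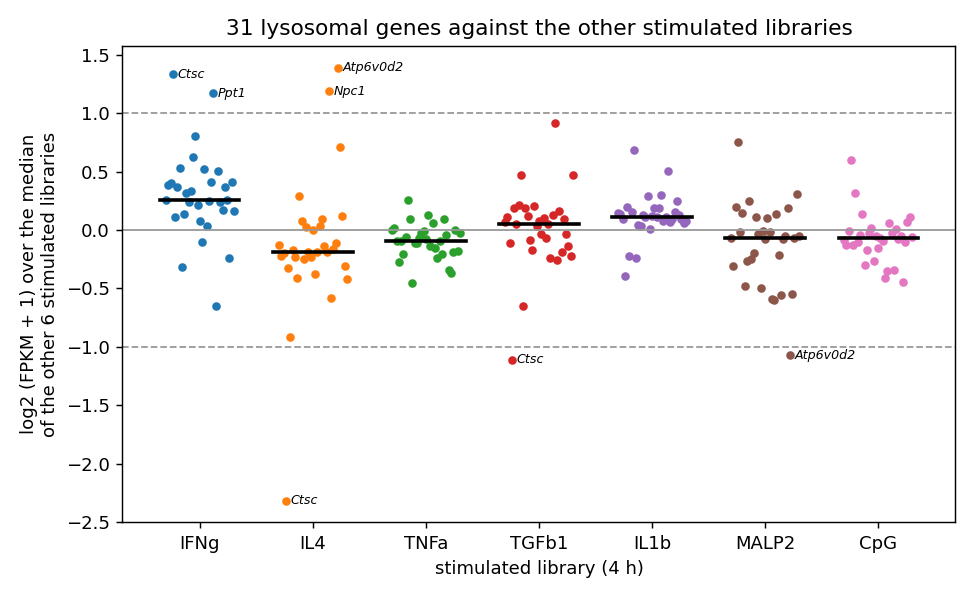
Log2 difference in FPKM + 1 between each stimulated library and the median of the other 6, for 31 genes (points), with the median as a black bar and 2-fold as dashed lines. The medians lie between -0.19 (IL4) and 0.26 (IFNg), and Ctsc, Ppt1, Npc1 and Atp6v0d2 are the only labelled points past 2-fold.

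Other genes of the pathway were grouped in lists. Their counts stand beside the share of all genes compared, of which 8.57% (IL1b) to 12.7% (IFNg) were at least 2-fold lower and 7.15% (TGFb1) to 10.7% (IFNg) higher. Of 43 other lysosomal hydrolases and membrane proteins, 4 (9.30%) were at least 2-fold lower after IL4, where 11.9% of all genes were, 5 (11.6%) after IFNg, where 12.7% were, and 11 (25.6%) after MALP2, where 11.7% were. Between 0 and 1 were at least 2-fold higher, and the list median was -0.68 (IL4) to -0.18 (IFNg). Against the other 6 stimulated libraries it was -0.12 (CpG) to 0.36 (IFNg). The heparan sulfatase Sgsh went furthest, at 2.02 to 9.28 FPKM in stimulated libraries and 50.1 FPKM untreated, though its locus also spans Card14. Ctns, the cystine exporter, had 6.88 FPKM after IFNg, 8.65 to 23.9 FPKM after the other stimuli and 44.3 FPKM untreated. The sialomucin Cd164 ran the other way, with 82.0 FPKM after IFNg, 128 after IL4, 17.0 to 25.8 FPKM after the other 5 and 16.6 FPKM untreated.

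Of 17 other pump subunits 14 could be compared, with 0 (TGFb1 and IL1b, where 9.15% and 8.57% of all genes were) to 2 (14.3%, MALP2, where 11.7% were) at least 2-fold lower. After the other 4 stimuli 1 (7.14%) was lower, a share under that of all genes. Between 0 and 1 were at least 2-fold higher, with medians of -0.38 (IL4) to -0.062 (IFNg). Against the other 6 stimulated libraries the medians were -0.11 (TNFa) to 0.058 (IFNg). Atp6v0a1, a large membrane subunit, had 752 FPKM after IL4, 74.5 to 152 FPKM after the other 6 and 146 FPKM untreated. The alternative isoform Tcirg1 was lowest where Atp6v0a1 was highest, with 133 FPKM after IL4, 213 to 269.8 FPKM after the others and 422 FPKM untreated. The cytoplasmic subunit Atp6v1c1 had 45.9 FPKM (IFNg) to 79.1 FPKM (IL4) in stimulated libraries and 125 FPKM untreated. IL4 thus went with higher Atp6v0a1 and lower Tcirg1. Atp6v0d2 was also higher after IL4, but by less than 2-fold, with overlapping bounds and no call by the authors.

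Among relatives of Tfeb and the nutrient-sensing genes of the lysosomal surface, 19 of 20 could be compared, with 3 (15.8%) at least 2-fold lower after IL4, where 11.9% of all genes were, and 7 (36.8%) after MALP2, where 11.7% were. List medians were -0.61 to -0.39, but -0.14 (MALP2) to 0.12 (IL4) against the other 6 stimulated libraries. Folliculin, encoded by Flcn, and its partner Fnip2 act on the Rag GTPases that hold TFEB in the cytoplasm. Fnip2 had 9.63 FPKM after IL4, 13.9 after IFNg, 24.1 to 46.4 FPKM after the other 5 and 182 FPKM untreated. Flcn had 13.6 to 23.0 FPKM in stimulated libraries and 70.8 FPKM untreated. The Rag GTPase Rragc, named after its values were seen, had 47.5 to 74.3 FPKM in stimulated libraries and 193 FPKM untreated. All 3 were at least 2-fold lower, and called lower in the authors' deposited table, in all 7 comparisons. Other genes of the list were near untreated or above it. The log2 change was -0.093 to 0.10 for Rraga, -0.044 to 0.19 for Mtor and -0.18 to 0.049 for Lamtor5. Rheb (0.22 to 0.70) and Rptor (0.046 to 0.72) were above untreated in all 7 comparisons, and Rptor was called in 4. Tfec, a macrophage member of the same family, had 64.8 FPKM after IL4, 1.98 after TGFb1, 14.2 to 23.2 FPKM after the other 5 and 15.0 FPKM untreated.

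List medians of the autophagy genes were -0.88 (IFNg) to -0.45 (TGFb1), and 0 of 30 were at least 2-fold higher in any comparison. Against the other 6 stimulated libraries the medians were only -0.14 (IFNg) to 0.081 (IL1b). Of the 30, 5 (16.7%) were at least 2-fold lower after TGFb1, where 9.15% of all genes were, and 12 (40.0%) after IFNg and after MALP2, where 12.7% and 11.7% were. The initiating kinase Ulk1 had 1.62 FPKM (IFNg) to 4.77 FPKM (TGFb1) in stimulated libraries and 18.4 FPKM untreated. Calcoco1, a receptor of selective autophagy, had 6.16 to 9.57 FPKM in stimulated libraries and 37.4 FPKM untreated, and Uvrag, which acts in autophagosome maturation, 9.14 to 21.6 FPKM against 42.0 FPKM untreated. Of 9 genes that sort lysosomal enzymes, by mannose 6-phosphate or otherwise, 2 were at least 2-fold lower in each comparison (22.2%, where 8.57% to 12.7% of all genes were). They were the adaptor Gga2 (8.87 to 18.2 FPKM after stimulation, 47.2 FPKM untreated) and the receptor Sort1 (7.53 to 11.1 FPKM after stimulation, 24.6 FPKM untreated). After IFNg, TNFa, TGFb1 and MALP2, 1 (11.1%) was at least 2-fold higher, where 7.15% to 10.7% of all genes were. The mannose 6-phosphate receptor M6pr had 145.7 to 310 FPKM after stimulation and 144.8 FPKM untreated. It was at least 2-fold higher after TNFa and MALP2. Gnptab, which makes the sorting tag, was higher in all 7, at 43.0 to 96.2 FPKM against 31.5 FPKM untreated. Of 8 cathepsin inhibitors 4 could be compared, and Serpinb6a was at least 2-fold lower after MALP2 (199.5 FPKM) and CpG (198 FPKM), against 422 FPKM untreated. Of all genes, 11.7% were at least 2-fold lower after MALP2 and 11.2% after CpG.

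**Figure D5:**
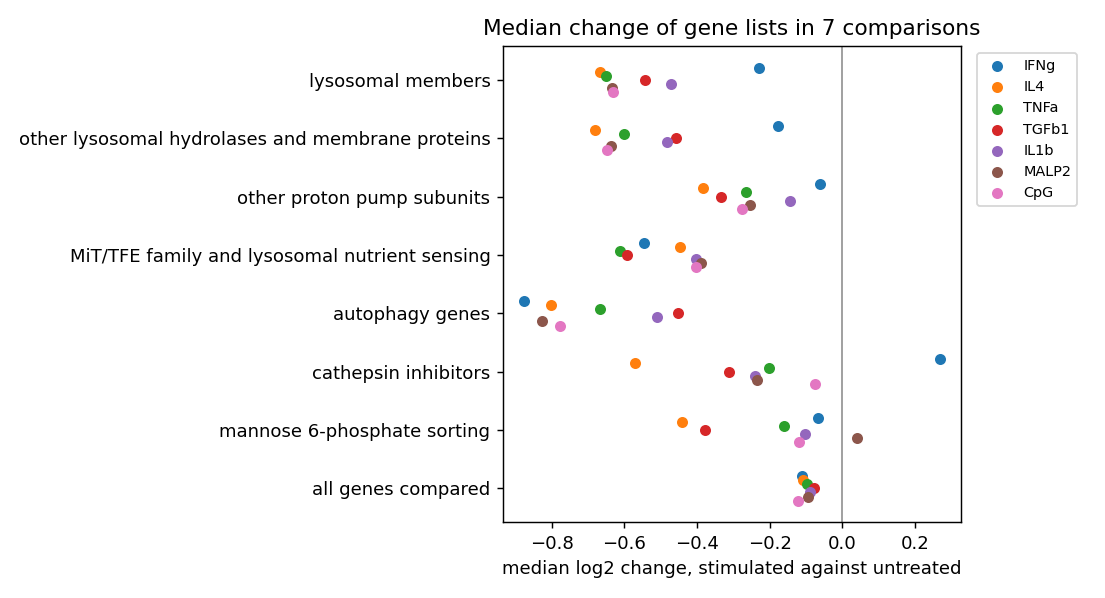
Median log2 change against untreated of the lysosomal genes of the set, of 6 related lists and of all genes compared (rows), with 1 point for each of the 7 stimuli. All genes lie between -0.12 and -0.077, the lysosomal genes between -0.67 and -0.23 and the autophagy genes between -0.88 and -0.45.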

How the data were processed

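Poly(A) RNA came from 1 untreated and 7 stimulated macrophage cultures, with 1 library per group. The submitters' processing notes name TopHat 1.3.1, the mm9 build, Cufflinks 1.2.1 and Cuffdiff 1.2.1. Their options, the strandedness and the read totals are not stated there, so a gene and one that overlaps it cannot be separated, and depth is unknown. The authors deposited FPKM with lower and upper bounds for each stimulated library beside the untreated one, per the file headers, and a further table per stimulus with the authors' q-value and call, per the file headers. Symbols were found for 31840 of 36806 identifiers. Between 336 and 388 identifiers per stimulus had no usable estimate in 1 of the libraries and were not compared. The untreated library had another scale in each table, so its FPKM did not rest on its own total alone. How far very abundant transcripts lower all other values is therefore not known.

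A gene was compared when it had at least 1 FPKM in either library, on a log2 scale with a pseudocount of 1, and counted at 2-fold. Tables were joined through their untreated values. The rule was to name the members at least 2-fold apart in any comparison. Of each list other than the cell type markers, it took at most the 3 with the largest change that reached 2-fold. Members under 2-fold were given by their range, but Ctsl, Gaa, Npc2 and Tfe3 by library. Rragc, Rraga, Mtor, Lamtor5, Rheb, Rptor and M6pr were named outside that rule, after their values were seen. Cell type markers were named without that rule. The members and lists were chosen with earlier results of these data known. As alternatives, the pseudocount was set to 0.1, the floor to 5 FPKM or to none, changes were centred on the median gene, a call by the authors was also required, or the other stimulated libraries served as reference. That reference without IFNg was added after seeing the data. The counting was tested on simulated data. Motifs were searched on both strands. The software was matplotlib 3.10.9, scipy 1.17.1, pandas 2.3.3, numpy 2.4.6 and Python 3.11.15.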

Additional observations from a re-analysis of the deposited data

Results flagged for a closer look

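The log2 change of Ctsc lay on both sides of 0 between stimuli. It was 2.30 after IFNg, 1.01 after TNFa, 0.21 after TGFb1, 0.93 after IL1b, 1.73 after MALP2 and 1.57 after CpG, and -0.9995 after IL4. Ctsc was the only compared gene of the set that the authors' deposited table called higher after some stimuli and lower after another. With 1 library per group the difference between stimuli was not tested.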

How the results depend on the processing

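No paired analysis was possible because each group holds 1 library. With a pseudocount of 0.1, a floor of 5 FPKM or no floor, every count of members stayed within 1.5 times and every median of the members within 0.25 of the value given. Centring on the median gene left the medians at -0.56 to -0.12 and moved the IL1b counts to 1 higher and 2 lower; the cause is the shift of the median gene itself. When the authors' call in their deposited table was also required, 1 member was lower after IFNg, 3 after IL4, 2 after TNFa, 2 after TGFb1, 2 after IL1b, 5 after MALP2 and 2 after CpG.

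The reference mattered most, and the cause was not tested. Against the other 6 stimulated libraries, higher and lower members numbered 2 and 0 after IFNg (median 0.26), 2 and 1 after IL4 (-0.19), 0 and 0 after TNFa (-0.090), 0 and 1 after TGFb1 (0.054), 0 and 0 after IL1b (0.11), 0 and 1 after MALP2 (-0.071) and 0 and 0 after CpG (-0.068). Without IFNg in that reference, they numbered 2 and 1 after IL4 (-0.13), 0 and 0 after TNFa (-0.050), 0 and 0 after TGFb1 (0.10), 0 and 0 after IL1b (0.15), 0 and 1 after MALP2 (-0.046) and 0 and 0 after CpG (-0.043). Of genes at least 2-fold from untreated in a comparison, 14 of the values changed sign against the other 6, and 28 changed sign among smaller values of the same 13 genes. After IFNg those at least 2-fold from untreated were Lipa (0.032) and Atp6v1a (0.26), and after IL4 Lipa (0.037). After TNFa they were Ctsc (-0.28), Neu1 (0.13) and Lipa (0.057). After IL1b they were Neu1 (0.19), Lipa (0.19), Smpd1 (0.074), Atp6v1a (0.13) and Tfeb (0.079). After MALP2 they were Neu1 (0.10) and Smpd1 (0.14), and after CpG Smpd1 (0.057). Without IFNg in that reference, 14 changed sign (23 among smaller values), after IL4 for Lipa (0.072), after TNFa for Neu1 (0.12), Lipa (0.091), Mcoln1 (0.0057) and Tfeb (0.021), and after TGFb1 for Atp6v1a (0.046). It also changed after IL1b for Neu1 (0.18), Lipa (0.22), Smpd1 (0.14), Atp6v1a (0.15) and Tfeb (0.089), after MALP2 for Neu1 (0.093) and Smpd1 (0.20), and after CpG for Smpd1 (0.13). With 1 library per group, the spread between cultures is not known. Levels of Ctsb, Ctsd and Psap against untreated could not be given. Of the genes at least 2-fold from untreated, Ctsk, Lgmn, Gla, Neu1, Lipa, Smpd1, Npc1 and Mcoln1 had overlapping bounds in all 7 tables.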
